A study of Mus musculus with 6 samples.

Results

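Itgam, which encodes the CD11b chain of the myeloid integrin Mac-1, was examined together with 9 other integrin chains in sorted hematopoietic stem cells (HSCs) of WT and *Med23*-deficient mice. The 10 genes were chosen by name, with their read counts in this same comparison already known. They are Itgam, Itgb2, Itgal, Itgax, Itgb7, Itga4, Itgb1, Itga6, Itga2b and Itgb3, 10 of the 34745 genes in the deposited tables. Because measured values selected them, their differences between groups are given as a description with no test. Med23 is a subunit of the Mediator complex, which links transcription factors to RNA polymerase II. All mice were adult C57BL/6 animals. The 3 WT samples carried floxed Med23 alleles without a Cre transgene, and the 3 KO samples carried the same alleles with Mx1-cre, which is driven by an interferon-responsive promoter that is also active outside blood cells. The methods give injection of poly(I:C), an interferon inducer, as the trigger of deletion. The time from injection to sorting is not given in the sources used here. Cells were sorted from bone marrow as CD150-positive, CD34-negative and CD48-negative cells among LSK cells, the lineage-negative, Sca1-positive and cKit-positive fraction. The lineage antibodies listed in the methods do not include one against CD11b itself, and a lineage depletion step preceded the sort.

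Integrins are pairs of one alpha and one beta chain that hold cells to other cells and to matrix and that signal in both directions across the membrane. The beta2 chain (Itgb2, CD18) pairs with Itgal (LFA-1), Itgam (Mac-1), Itgax (CD11c) or Itgad, and these receptors are typical of leukocytes. Itgam and Itgax serve as markers of myeloid and dendritic cells. Itga4 pairs with Itgb1 to form VLA-4, which anchors HSCs to VCAM1 and fibronectin in the marrow, or with Itgb7 to form a homing receptor for the gut. Itga6 pairs with Itgb1 to bind laminin, and Itga2b (CD41) pairs with Itgb3 to form the fibrinogen receptor of platelets.

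Reads counted on genes ranged from 3537269 to 8131344 in the WT libraries and from 4760545 to 5281232 in the KO libraries. Levels are given as CPM, counts scaled by TMM to libraries of equal size. A level of 0.369 to 0.927 CPM, depending on the library, stands for 3 reads, which was taken as the limit of detection. The level of Med23 itself was 47.6 CPM in WT replicate 1, 70.8 in WT replicate 2 and 24.1 in the library labelled WT replicate 3, beside 31.6, 29.8 and 36.8 CPM in KO. The third of the WT libraries thus lay below every KO library and, at this gene, went against its label. At the 8 skeletal muscle genes described below, that library lay with its group. Their sum was 285 CPM there, beside 151 and 120 CPM in WT replicates 1 and 2 and 7.09 to 13.3 CPM in KO. Those genes were listed with earlier results of these data known, so their levels are no check of the label. The part of Med23 that was deleted is not distinguished in a count over the whole gene. Replicate 3 of both groups also stood apart at Y-linked genes, which summed to 1 and 0 counts there and to at least 1036 in each of the other libraries. Of the sorting markers, Kit ranged from 796 to 937 CPM in WT and from 570.04 to 720.2 CPM in KO, Ly6a (Sca1) from 152 to 216 and from 81.3 to 151, and Slamf1 (CD150) from 21.02 to 96.8 and from 27.5 to 58.2. Cd48 was absent from the KO libraries and reached 28 counts in WT. Cd34 RNA was present at 296 to 360.1 CPM in WT and 384 to 519.7 CPM in KO, although CD34-positive cells were gated out. By the Y-linked counts, replicates 1 and 2 of each group held male cells and replicate 3 female cells, so the samples of a group did not all share an animal. The labels and methods do not say whether replicates 1 and 2 came from separate animals, so spread between samples may be partly technical. In bulk RNA, fewer cells of a type and less RNA per cell cannot be told apart.

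Itgam lies on chromosome 7 from 128062640 to 128118491 on the forward strand of GRCm38. Nearby on that strand, Itgax (128129547 to 128150657) and Itgad (128154376 to 128223816) encode further alpha chains of the beta2 family. Itgal, also an alpha chain of that family, lies further away on the same strand. RefSeq promoter windows were at hand for 6 of the 10 genes. The bases just upstream of the start are shown for Itgam and for Itgax, its close paralog with no counts, and for Itgb7, which was higher in every KO library under each scaling tried. Capitals mark the letters GAGGAA, or TTCCTC on the other strand, which form the core that the myeloid transcription factor PU.1 prefers. Coordinates are those of GRCm38.p6, and bases that fall in an annotated GENCODE M21 exon were left out of the runs for Itgax and Itgb7.
Itgam promoter, chr7:128062390-128062639, forward strand: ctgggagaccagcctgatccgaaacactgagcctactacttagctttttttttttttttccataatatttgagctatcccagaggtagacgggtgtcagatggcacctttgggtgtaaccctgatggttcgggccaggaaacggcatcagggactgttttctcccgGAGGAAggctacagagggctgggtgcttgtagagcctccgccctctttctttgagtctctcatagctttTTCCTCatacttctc
Itgax promoter, chr7:128129300-128129546, forward strand: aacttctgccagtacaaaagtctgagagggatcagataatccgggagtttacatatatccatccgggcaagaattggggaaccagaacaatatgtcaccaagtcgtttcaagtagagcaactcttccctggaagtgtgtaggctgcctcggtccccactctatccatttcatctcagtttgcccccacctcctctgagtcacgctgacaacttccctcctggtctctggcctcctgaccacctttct
Itgb7 promoter, chr15:102231945-102232185, reverse strand: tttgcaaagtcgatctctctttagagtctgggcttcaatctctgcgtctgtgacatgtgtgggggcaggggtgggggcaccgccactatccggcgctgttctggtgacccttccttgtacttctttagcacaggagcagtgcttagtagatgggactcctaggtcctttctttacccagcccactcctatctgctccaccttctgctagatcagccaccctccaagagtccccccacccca
The Itgam window held the motif once on each strand, first met 84 and 15 bases upstream of the start. The windows of Itgax, Itgb7 and Itga4 held none, that of Itgb1 held it once, 9 bases upstream, and that of Itga2b held it at 2 places. Of the 250 bases of the Itga2b window, 180 lie in GENCODE M21 exons, and most of it is within the gene as M21 places it. Of all 32841 RefSeq promoter windows of 250 bases, 23.3% held the motif on either strand, so a match is common and is given only as a description of these letters.

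Itgam was low in all WT libraries and was counted at similar, much higher levels in all KO libraries. It was counted with 24, 6 and 39 reads in WT replicates 1 to 3 and with 394, 435 and 364 reads in KO replicates 1 to 3. On the CPM scale these were 4.92, 0.737 and 12.1 in WT and 79.8, 79.2 and 73.7 in KO. The groups did not overlap, and the lowest KO library stood far above the highest WT library, the one labelled WT replicate 3. Mean levels were 5.90 ± 5.72 CPM in WT and 77.5 ± 3.39 CPM in KO (SD, n = 3). The edgeR estimate of the difference was 3.80 on the log2 scale with a standard error of 0.74, a 13.9-fold higher level in KO. Among WT libraries the highest value was 16.3 times the lowest, whereas the KO libraries differed by no more than 1.08 times. Without the library labelled WT replicate 3 the estimate was 4.87 on the log2 scale, and without WT replicate 2, which had 6 reads, it was 3.21.

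**Figure D1:**
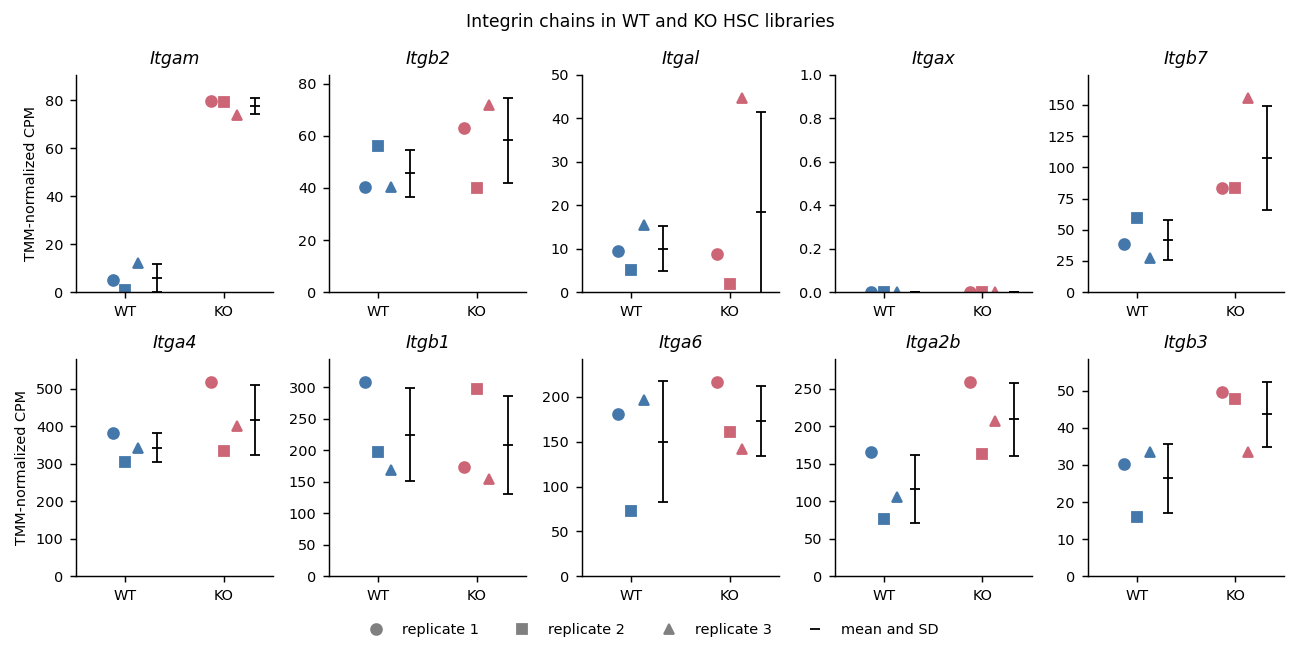
Level of each integrin chain in TMM-normalized CPM (vertical axes, linear and starting at 0) in the 3 WT and 3 KO libraries, with the replicate number shown by the symbol and the mean ± SD to the right of each group (a lower bar that would pass 0 ends at the axis). Itgam was at 0.737 to 12.1 CPM in WT and 73.7 to 79.8 CPM in KO, Itgal and Itgb7 were highest in KO replicate 3, and Itgax had no counts.

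The table holds a second row named Itgam, ENSMUSG00000108596, beside the row used here, ENSMUSG00000030786. GENCODE M21 calls that second model Gm49368 and places it on the same strand from 128062683 to 128128160. Of the 5024 exon bases of the first model, 3450 also belong to the second, which leaves 1574 that tell it apart from the second model's own 1353. The second model was counted with 62, 4 and 22 reads in WT and with 0, 0 and 22 reads in KO. Its pattern thus did not follow that of the first model, and its estimate was -2.15 on the log2 scale with a standard error of 1.70. In WT replicate 1 more reads were given to the second model than to the first, whereas in KO replicates 1 and 2 all went to the first. With the reads of both models summed, the libraries had 86, 10 and 61 reads in WT and 394, 435 and 386 in KO, and the estimate was 2.68 with a standard error of 0.73. How a read that lies in both models was counted is not given in the sources used here.

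**Figure D2:**
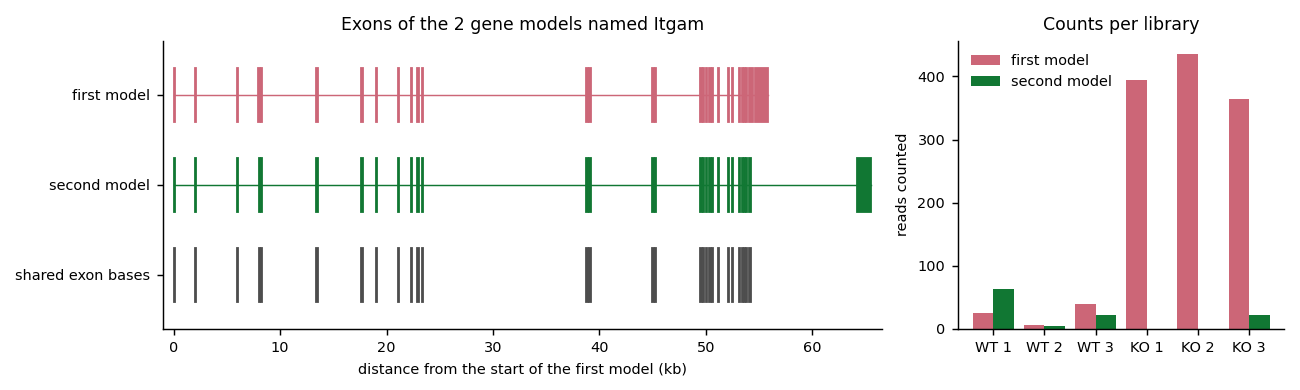
Exons of the 2 gene models named Itgam and the exon bases they share against the distance from the start of the first model in kb (left; outlines widen the thinnest exons so that they can be seen), and the reads counted on each model per library (right, linear axis from 0). The models share 3450 exon bases and differ at the 3′ end, and the first model was counted with 6 to 39 reads in WT and 364 to 435 in KO.

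The other chains of the beta2 family did not follow Itgam. Itgb2 (chromosome 10, 77530252 to 77565708), the common beta2 chain, was counted at 40.4, 56.2 and 40.2 CPM in WT and at 63.0, 40.0 and 71.6 CPM in KO. The groups overlapped, with KO replicate 2 at the level of the lowest WT library, and the estimate was 0.35 with a standard error of 0.33. Itgal (chromosome 7, 127296260 to 127335138), the alpha chain of LFA-1, was counted at 9.43, 5.16 and 15.5 CPM in WT and at 8.71, 1.82 and 44.7 CPM in KO. KO replicate 3 was the highest of all libraries and KO replicate 2 the lowest, a range of 24.6 times within the KO group. The Itgal estimate was 0.89 with a standard error of 0.95 over all libraries and -0.91 without KO replicate 3, so its direction rested on that library. Itgax, the CD11c chain of dendritic cells, had 0 counts in every library, which allows a level of up to 0.369 to 0.927 CPM.

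Levels of different genes were compared in FPKM, deposited values in which counts are divided by gene length and by library total. The alpha chains that can pair with beta2 (Itgal, Itgam, Itgax and Itgad) summed to 1.73, 0.674 and 3.36 FPKM in WT and to 12.4, 11.6 and 14.4 FPKM in KO. Itgb2 stood at 8.90, 12.1 and 7.88 FPKM in WT and at 14.0, 8.94 and 14.8 FPKM in KO. The summed alpha chain RNA was therefore 0.225 ± 0.187 of the Itgb2 level in WT and 1.05 ± 0.22 in KO (SD, n = 3). Itgam made up 40.6, 15.2 and 45.6% of that alpha chain FPKM in WT and 92.3, 98.3 and 68.3% in KO. Counted on the first gene model alone, Itgal led in WT replicates 1 and 2, the library labelled WT replicate 3 had close to equal parts of both, and Itgam led in every KO library. The mean share of Itgam was 33.8 ± 16.3% in WT and 86.3 ± 15.9% in KO (SD, n = 3). These WT values depend on how reads that lie in both models were counted, which is not given. Were such reads counted on neither model, the Itgam FPKM would be too low in both groups. With the FPKM of both models added, a choice made after the data were seen, the share was 75.5, 25.5 and 59.7% in WT (mean 53.6 ± 25.6%) and 92.3, 98.3 and 70.0% in KO (mean 86.9 ± 14.9%; SD, n = 3). Itgam then led Itgal in WT replicate 1 and in the library labelled WT replicate 3, and WT replicate 1 lay above KO replicate 3, so that the groups overlapped. The alpha chain sum was then 0.370 ± 0.270 of the Itgb2 level in WT and 1.07 ± 0.21 in KO. The shares rest on few WT reads. In WT replicate 2 the 6 Itgam reads were 12.2% of 49 alpha chain reads (exact Clopper-Pearson 95% interval 4.63 to 24.8%), and in KO replicate 2 the 435 reads were 97.8% of 445 (95.9 to 98.9%), intervals that cover counting error only. Itgad had 0, 1 and 6 reads in WT and none in KO.

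**Figure D3:**
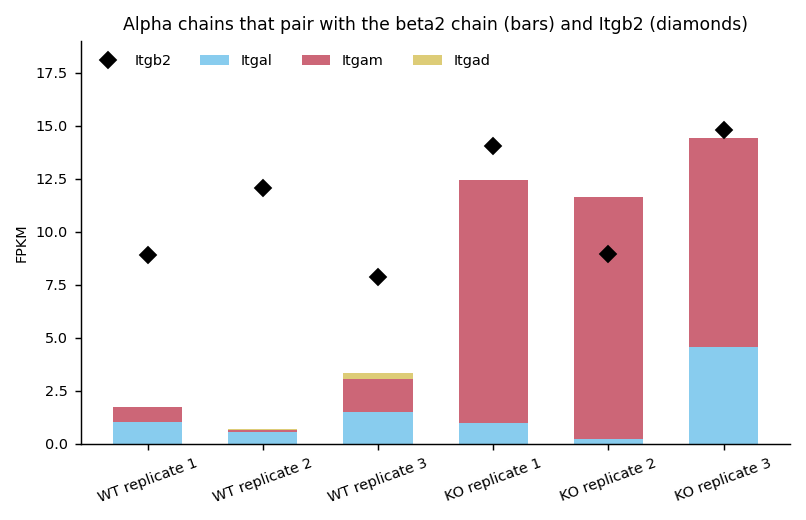
FPKM of the alpha chains that pair with beta2, stacked per library (bars, linear axis from 0), and FPKM of Itgb2 (diamonds). The alpha chain sum was 0.674 to 3.36 FPKM in WT, below Itgb2 in each library, and 11.6 to 14.4 FPKM in KO, most of it Itgam.

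Because Itgam is a myeloid gene, markers of mature myeloid cells were counted in the same libraries. Of 12 mature granulocyte markers, Ly6g, Ltf and Mmp8 were at 0 in all libraries. The list summed to 167 to 213 CPM in WT and 160.1 to 329 CPM in KO, nearly all of it Padi4. Lcn2 had 8, 0 and 8 reads in KO and none in WT, and Camp 11 in KO replicate 3 and at most 1 elsewhere. Cxcr2 had 0, 0 and 2 reads in WT and 4, 0 and 8 in KO. S100a9 had 10, 19 and 13 reads in WT and 7, 0 and 17 in KO. Retnlg had 5 reads in WT replicate 3 alone, and Ngp 12 there and 9 in KO replicate 3. Of 14 monocyte and macrophage markers, Vsig4 was at 0 in all libraries, and the list, led by Lyz2, summed to 423 to 564 CPM in WT and 456 to 525 CPM in KO. Within it, Adgre1 (F4/80) had 2, 11 and 20 reads and Fcgr1 (CD64) had 10, 6 and 43 reads in KO replicates 1 to 3 and none in WT. Ccr2 had 106 reads and Ly6c2 28 reads in WT replicate 2, with at most 1 read in any other library, and Cd14, Marco and Cx3cr1 had at most 3 reads, all in WT. Csf1r had 0, 13 and 39 reads in WT and 0, 19 and 10 in KO. Mrc1 had 47 reads in KO replicate 1 and none elsewhere. C1qb had 11, 10 and 15 reads in WT and 42, 14 and 30 in KO, and C1qa 0, 88 and 26 in WT and 12, 8 and 29 in KO. The 5 primary granule genes of early granulocyte progenitors summed to 90.2, 142 and 96.4 CPM in WT and to 308, 309.8 and 574.5 CPM in KO, most of it Prtn3, a neutrophil serine protease (405, 1150 and 280 reads in WT, 1503, 1688 and 1756 in KO). In KO replicate 3, Mpo, the granule peroxidase, had 867 reads against at most 23 in any other library. The part of other myeloid cells in the Itgam difference was not tested.

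Itgb7 (chromosome 15, 102215995 to 102231944, reverse strand), the partner of Itga4 in the gut homing receptor, had separate groups, as Itgam did. It was counted at 38.3, 59.1 and 27.5 CPM in WT and at 83.7, 83.2 and 156 CPM in KO. Every KO library lay above every WT library, and KO replicate 3 stood well above the other KO libraries, which were alike. Mean levels were 41.7 ± 16.1 CPM in WT and 107 ± 41.7 CPM in KO (SD, n = 3), and the estimate was 1.36 with a standard error of 0.37, a 2.57-fold higher level in KO. Without replicate 3 of both groups the estimate was 0.79. KO replicate 3, where Itgb7 and Itgal were highest, was also the library with 867 Mpo reads, 115 reads of the granule protease Elane and 83 of Ctsg, and the part of those cells or transcripts was not tested.

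Itga4 (chromosome 2, 79255426 to 79333123), the alpha chain of VLA-4, was among the most abundant of the 10 genes and differed little between the groups. It was counted at 382, 304 and 341 CPM in WT and at 518, 333 and 401 CPM in KO, and the groups overlapped. The estimate was 0.29 with a standard error of 0.22. Of its 13978 exon bases, 1124 also lie in exons of Cerkl on the opposite strand, and whether strand was used in counting is not given in the sources used here. Its other partner Itgb1 (chromosome 8, 128685654 to 128733200) was counted at 308, 197 and 169 CPM in WT and at 173, 297 and 155 CPM in KO, and it was the only chain of the 9 with counts whose estimate was below 0, at -0.11 with a standard error of 0.31. The Itgb7 to Itga4 ratio in FPKM was 0.561, 1.09 and 0.451 in WT and 0.903, 1.40 and 2.17 in KO, so that KO replicate 1 lay within the WT range. The Itgb7 to Itgb1 ratio was 0.252, 0.609 and 0.330 in WT and 0.982, 0.567 and 2.04 in KO, and here KO replicate 2 lay within the WT range.

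Itga6 (chromosome 2, 71745616 to 71858416), the laminin receptor chain, was counted at 180.4, 73.1 and 197 CPM in WT and at 217, 161 and 142 CPM in KO. WT replicate 2 was the lowest library and the groups overlapped, with an estimate of 0.21 and a standard error of 0.35. Itga2b (chromosome 11, 102453297 to 102470122, reverse strand), the CD41 chain found on megakaryocytes and on part of the HSCs, was counted at 166, 76.3 and 106 CPM in WT and at 259, 163 and 207 CPM in KO. Only KO replicate 2 fell within the WT range, just below WT replicate 1, and the estimate was 0.85 with a standard error of 0.31, a 1.80-fold higher level in KO. Its partner Itgb3 (chromosome 11, 104608000 to 104670476) was counted at 30.1, 15.9 and 33.4 CPM in WT and at 49.6, 47.7 and 33.6 CPM in KO. KO replicate 3 was level with the library labelled WT replicate 3, and the groups of Itgb3 were separate under TMM, total count and FPKM scaling but not under the scaling of DESeq2 or upper quartiles. The Itgb3 estimate was 0.73 with a standard error of 0.40. The estimates of both chains were of like size, and the Itgb3 to Itga2b ratio in FPKM was 0.221 ± 0.066 in WT and 0.203 ± 0.065 in KO (SD, n = 3). The 8 megakaryocyte and platelet markers counted beside them summed to 68.7 to 98.0 CPM in WT and 115 to 135 CPM in KO, with Gp6 and Clec1b at 0 in all libraries. Of the 6 with counts, Ppbp (2.39 on the log2 scale), Gp1ba (1.09) and Gp9 (0.53) were higher in CPM in every KO library, as were 6.25% of all genes tested. The groups of Gp1bb (0.43), Pf4 (-0.22) and Treml1 (-1.59) overlapped. None of the 6 was called by edgeR, which called 0.0719% of all genes tested. The part of megakaryocytic cells in the Itga2b and Itgb3 differences was not tested.

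In FPKM the order of the chains in WT was Itgb1 (39.4 ± 14.8), Itga4 (21.6 ± 3.13), Itgb7 (14.8 ± 6.12), Itga2b (14.1 ± 6.10), Itga6 (11.9 ± 5.14), Itgb2 (9.61 ± 2.18), Itgb3 (2.99 ± 0.99), Itgal (1.02 ± 0.48) and Itgam (0.78 ± 0.72; SD, n = 3). Neighbours from Itga4 down to Itgb2 overlapped in their ranges over libraries, as did Itgal and Itgam, whereas Itgb1, Itgb2 and Itgb3 were each separate from the chain next below. In KO the order was Itgb7 (38.6 ± 13.1), Itgb1 (37.6 ± 15.04), Itga4 (27.1 ± 6.44), Itga2b (26.2 ± 6.31), Itga6 (14.3 ± 3.64), Itgb2 (12.6 ± 3.18), Itgam (10.9 ± 0.93), Itgb3 (5.15 ± 1.22) and Itgal (1.91 ± 2.33). On the first model Itgam was thus the lowest in WT among the 9 of the 10 chains with counts. In KO its range overlapped that of Itgb2, while from Itgb7 to Itga2b each chain overlapped the next. With both models added, Itgam was at 2.03 ± 1.60 FPKM in WT, rank 8 above Itgal, and at 11.2 ± 0.47 FPKM in KO, again rank 7. The lengths behind the deposited FPKM were not those of the M21 exons, at 7207 bases for Itgam against 5024. With the exon lengths in their place Itgam kept rank 9 in WT and rank 7 in KO, whereas Itgb7 went from rank 3 to rank 5 in WT and from rank 1 to rank 2 in KO, below Itgb1 (38.8 against 51.0 CPM per kilobase). The lead of Itgb7 in KO thus rested on the deposited lengths, as did any ratio of Itgb7 to Itgb1 read as above or below 1.

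Of the 10 genes, 9 passed the filter on low counts and Itgax did not. edgeR called 0 of the 9 at an adjusted p of 0.05, where it called 0.0719% of the 12513 genes tested, and DESeq2 called 1, Itgam, where it called 0.959% of genes. At an unadjusted edgeR p under 0.05 there were 3 (Itgam, Itgb7 and Itga2b), where 5.71% of all genes passed. Itgam, Itgb7 and Itgb3 were higher in every KO library, as were 6.25% of all genes tested. Limma on log2(FPKM + 1) with a mean FPKM of at least 1 called Itgam, where it called 15 of 11920 genes. With limma voom 0 of all 12513 genes were called, and so none of the 9. The genes were selected on these values, so nothing is read from those counts. The estimate was above 0 for 8 of the 9, beside 49.5% of all genes, with a median of 0.73 on the log2 scale beside -0.01, and these too follow the choice of genes.

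**Figure D4:**
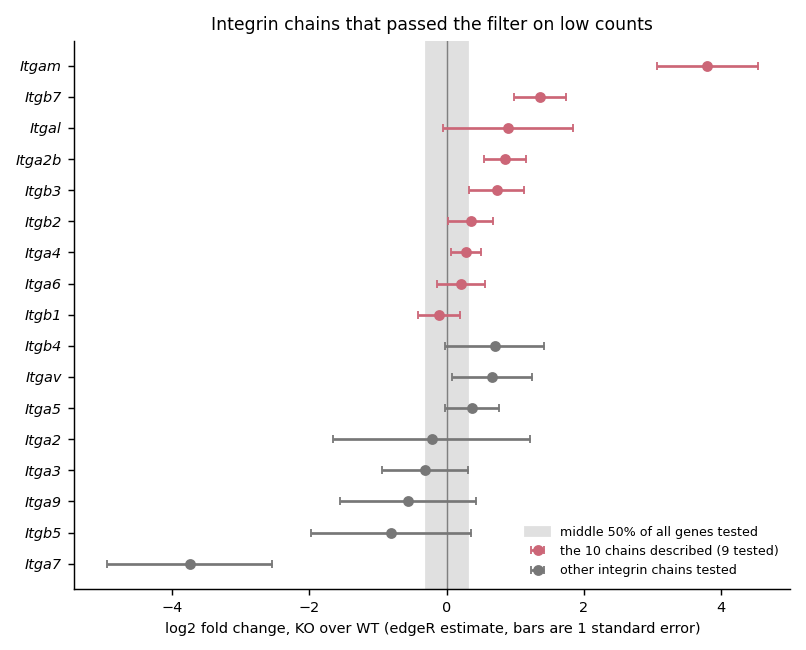
edgeR log2 fold change of KO over WT with 1 standard error for the 9 chains that passed the filter (red) and for the 8 other integrin chains that passed it (grey); the band holds the middle 50% of all genes tested. Itgam stood at 3.80, the other 8 of the red chains lay between -0.11 and 1.36, and Itga7 stood at -3.75.

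The genes whose levels over the 6 libraries were most like those of Itgam were found by Pearson's r of log2(CPM + 0.5) among 10136 genes with a mean of at least 50 counts. They were Acadm, an enzyme of fatty acid oxidation (r = 0.997), Sp140, a nuclear body protein of leukocytes (0.995), Hectd2, a ubiquitin ligase (0.990), Aasdh (0.989) and Mtor, the growth kinase (0.979). Acadm was counted at 143, 118 and 155 CPM in WT and at 188, 189 and 185 CPM in KO, so a close likeness in pattern went with a far smaller difference, 0.43 on the log2 scale against 3.80. Among the 10 chains, r with Itgam was 0.91 for Itgb3 and 0.82 for Itga2b, 0.64 for Itga6, 0.60 for Itga4, 0.59 for Itgb7, 0.24 for Itgb2, 0.14 for Itgal and -0.16 for Itgb1. All these values share the same 6 libraries in 2 groups and are descriptions.

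The rest of the integrin pathway was read in 5 lists of chains, activators, signalling proteins, ligands and surface partners, which were drawn up with earlier results of these data known. Of 89 genes, 64 were tested. edgeR called 0 of them, beside 0.0719% of all genes tested. At an unadjusted p under 0.05 there were 11 (6 higher and 5 lower in KO), beside 5.71% of all genes, and DESeq2 called 1, the tetraspanin Cd53, beside 0.959%. Of the 17 other integrin chains, 8 were tested, with a median of -0.27 on the log2 scale. Itgav, the vitronectin receptor chain, was at 0.67 with a standard error of 0.58, Itga5, the fibronectin receptor chain, at 0.37 (SE 0.39) and Itga3 at -0.32 (SE 0.63), with overlapping groups for each. Itga7, the laminin receptor chain of muscle, was picked out after its values were seen, with 18, 23 and 25 reads in WT and 2, 1 and 2 in KO. Its estimate of -3.75 (SE 1.20) had an adjusted edgeR p of 0.605. In the same libraries 8 skeletal muscle genes summed to 120 to 285 CPM in WT and 7.09 to 13.3 CPM in KO. Of these genes, edgeR called 3 lower (Myh3, Acta1 and Actc1), beside 0.0719% of all genes tested called in either direction. The part of the muscle genes in the Itga7 value was not tested.

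Of 17 genes that switch integrins on, 13 were tested, with a median of 0.24. Tln1, talin, which binds the beta chain tail, had 4998, 7660 and 3258 reads in WT and 8226, 7097 and 6615 in KO. Its CPM was higher in every KO library, as was that of 6.25% of all genes tested. Its estimate was 0.53 with a standard error of 0.17, and its adjusted edgeR p was 0.615. Flna, filamin, which competes with talin, was at 0.52 (SE 0.30), Fermt3, the kindlin of blood cells, at -0.09 (SE 0.18) and Apbb1ip, the adaptor RIAM, at -0.31 (SE 0.39). Of 20 genes of signalling and adhesion sites, 17 were tested, with a median of 0.17. Vcl, vinculin, was at 0.81 (SE 0.34) and Lims1 at 0.74 (SE 0.48), whereas Ptk2, focal adhesion kinase, was at -1.15 (SE 0.63) and Actn1, an actin crosslinker, at -0.54 (SE 0.43). None of these 8 passed the edgeR test.

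Of 22 ligands, 13 were tested, with a median of -0.90. Of the 13 estimates, 9 were below 0, as were 6318 of all 12513 genes tested. Lama5, a laminin chain, had 156, 183 and 23 reads in WT and 26, 9 and 32 in KO (estimate -2.20, SE 0.75, adjusted edgeR p 0.663). Icam4, a red cell ligand of beta2 and other integrins, had 80, 207 and 111 reads in WT and 16, 51 and 28 in KO (-2.06, SE 0.58, adjusted p 0.461). Both were lower in CPM in every KO library, as were 4 of the 13 ligands in all and 769 of all 12513 genes tested. Neither passed the test. Jam3, a junction protein that Mac-1 binds, had 39, 103 and 86 reads in WT and 190, 139 and 236 in KO (1.25, SE 0.51), and Jam2 was at 0.46 (SE 0.40). The 3 fibrinogen chain genes, encoding a ligand of Mac-1 and of Itga2b and Itgb3, and Madcam1, the ligand of Itga4 and Itgb7, had no counts. Vwf, another ligand of the list, was picked out after its values were seen. It had 1642, 1568 and 586 reads in WT and 527, 802 and 335 in KO (-1.15, SE 0.33, adjusted edgeR p 0.477).

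All 13 surface partners were tested, with a median of 0.10. Cd53 had 165, 599 and 135 reads in WT and 897, 652 and 1030 in KO. Its CPM was higher in every KO library, as was that of 6.25% of all genes tested. Its estimate was 1.76 with a standard error of 0.35, and the adjusted p was 0.180 by edgeR and 3.42e-04 by DESeq2. Cd44, the hyaluronan receptor, was at 0.85 (SE 0.31), Cxcr4, the receptor for the marrow chemokine CXCL12, at -1.23 (SE 0.57) and Plaur, the urokinase receptor that associates with Mac-1, at -1.42 (SE 0.67), and none of these 3 passed either test.

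**Figure D5:**
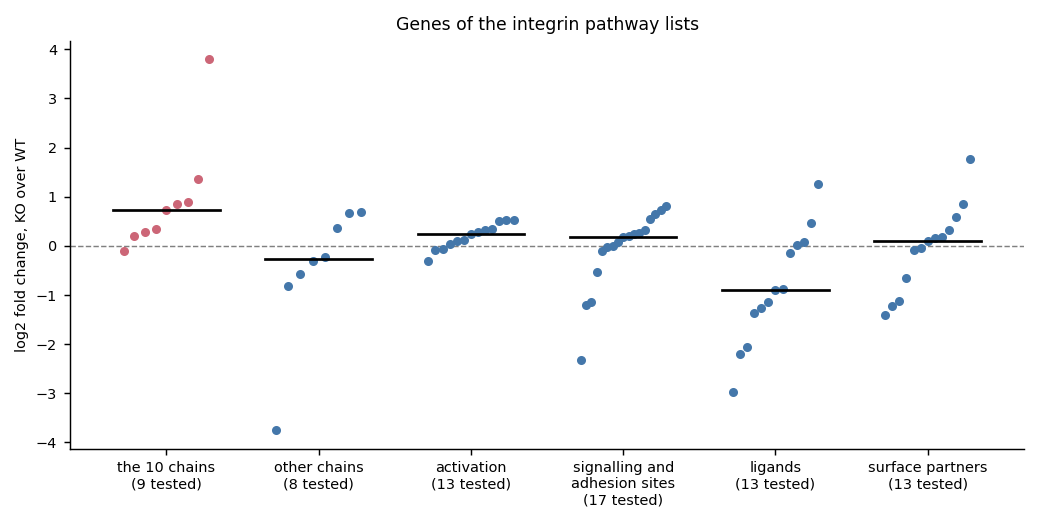
edgeR log2 fold change of KO over WT for each gene tested in the 10 chains (red) and in the 5 pathway lists (blue), ordered by value within a list; black lines are list medians and the dashed line is the median of all genes tested, -0.01. List medians ran from -0.90 for the ligands to 0.73 for the 10 chains, and within the 5 pathway lists Cd53 was the highest, at 1.76.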

How the data were processed

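Sorted HSCs were profiled by RNA-seq in 3 WT and 3 KO samples. Raw counts of reads on each gene and a matching FPKM table were deposited by the authors. The submitters' processing notes name TopHat, HTSeq and the mm10 build, without versions or settings. Labels name SMART-Seq v4 amplification and the methods a TruSeq kit. Groups were taken from genotype labels, and 0 columns were left unused. The test across genes was that of edgeR 4.0.16 under R 4.3.3 (filterByExpr, TMM, robust quasi-likelihood test, Benjamini-Hochberg at 0.05), which was tested on simulated data. Fold changes are KO over WT. Coordinates came from GENCODE M21 and promoters from RefSeq (GRCm38.p6). The 10 chains and all lists were chosen with earlier results of these data known. Named genes were the 10 chains, called list genes or otherwise the 2 highest and 2 lowest estimates of a list (mean of at least 50 counts), the 5 genes most like Itgam, Med23 and sorting markers; others were chosen after their values were seen. Alternatives were DESeq2 1.42.0, other scalings and filters, limma 3.58.1 on log2(FPKM + 1 or 0.1), voom, the replicate block and left-out libraries. Samples of one group differed by 24.4 to 50.0 chi-square units per degree of freedom, so none was a repeat deposit.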

Additional observations from a re-analysis of the deposited data

How the results depend on the processing

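The Itgam estimate was 3.80 on the log2 scale, stayed above 0 in every alternative that gave a value and ranged from 3.21 to 4.87 when 1 library was left out. It was 5.18 with limma voom, 2.82 on log2(FPKM + 1) and 2.68 with both gene models summed, and could not be obtained with at least 10 counts in every sample, since WT replicate 2 had 6. Of 128 values of the other 8 chains under 16 alternatives, 7 changed sign (Itgal, Itgb1 and Itga6) and 2 moved by more than the spread between replicates, Itgal to -0.91 without KO replicate 3 and Itgb7 to 0.79 without replicate 3 of both groups. The number of genes called by edgeR was 9, and it was 120 with DESeq2 (50 higher, 70 lower), 15 with limma on log2(FPKM + 1), 1 without its filter, 0 with voom and 5 to 11 when 1 library was left out, with 5 without WT replicate 1. DESeq2 and limma on log2(FPKM + 1) with its filter called 1 of the 10 chains, Itgam. DESeq2 called 1 gene of the 5 pathway lists, Cd53. Fits with 1 library left out were run with edgeR alone, which called 0 of each there and also with all 6 libraries. Causes were not tested. The Itgam share of beta2 alpha chain FPKM ranged from 27.9 to 43.1% in WT and from 80.3 to 95.3% in KO when 1 library was left out, and the WT mean was 53.6% with both gene models added. Equal replicate numbers do not pair the samples by the labels. The deviations of samples with the same number correlated by 0.170, 0.032 and 0.170. WT replicate 2 was slightly closer to KO replicate 1 (0.035) than to its own number. All other pairs of unlike number lay between -0.173 and -0.010, so replicates 1 and 3 were each closest to their own number. With the replicate number as a block edgeR called 5 genes, all lower in KO, and none of the 10 chains. The 6 to 39 Itgam reads per WT library limit the precision of any fold.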
